A study of Mus musculus with 2207 samples.

Results

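Disease-associated microglia are a state described around amyloid plaques, dying cells and damaged myelin. In it, the lipid receptor Trem2 signals through its adaptor Tyrobp, and the cell raises the lipoprotein Apoe first and then a second group of genes for lipid handling, phagocytosis and adhesion, while genes of resting microglia go down. The 10 genes described here are Trem2 and Tyrobp, Apoe, the membrane proteins Axl, Clec7a, Itgax and Cd9, and the lipase Lpl, the protease inhibitor Cst7 and the secreted protein Spp1. They were taken from the tables by symbol, and all 10 were found among the 52636 genes of each expression table.

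The values come from 2207 single cortical nuclei, sequenced by a full-length total RNA method (RamDA-seq) and given as RPKM, reads scaled to the exon length of the gene and to the read total of the nucleus. All mice were C57BL/6 males (C57BL6/J in the study's methods) of 14 weeks, given 2 doses of tamoxifen (100 mg/kg) by mouth from the age of 3 weeks, 1 week apart by the methods, and the nuclei of 3 mice were pooled for each genotype. In the 96-well plates, WT mice (Ehmt1+/+) stood beside Ehmt1Δ/+ mice, which lack 1 allele of the histone methyltransferase gene Ehmt1. In the 384-well plates, the mice called WT and Ehmt1Δ/+ both carried the silent Ehmt1 transgene (iTg, FLAG-Ehmt1 behind a Cre-removable stop) without Cre. The 2 other pools of these plates, iTg (Ehmt1+/+; Ehmt1 iTg; CamKII-CreER) and Ehmt1Δ/+; iTg (Ehmt1Δ/+; Ehmt1 iTg; CamKII-CreER), had the transgene switched on by a Cre that is active in forebrain neurons, not in microglia. The labels do not say which mouse a nucleus came from. Each of the 6 pools is therefore 1 sample, and nuclei are not replicates.

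The authors had labelled 1664 nuclei as neurons, 397 as oligodendrocytes and the rest as microglia. The microglia numbered 36 (WT) and 32 (Ehmt1Δ/+) in the 96-well plates, and 16 (WT), 19 (Ehmt1Δ/+), 20 (iTg) and 23 (Ehmt1Δ/+; iTg) in the 384-well plates. Reads per nucleus, recovered from the steps of the RPKM values, had a median of 493359 and 510639 in microglia of the 96-well pools but only 39940 to 51469 in the 384-well pools, while neurons had 323273 to 397880 in all pools. Detection of a weak gene in microglia therefore differs by plate format, and values are set against each other within a format.

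The label was checked against markers. Each of 8 microglia markers was above 0 in every microglial pool, with a summed level of 2353 to 4062 RPKM, against at most 11.9 in neurons and 12.7 in oligodendrocytes. However, 4 nuclei labelled as microglia carried 6 or 7 of the 7 markers of border macrophages (Mrc1, F13a1, Lyve1, Cd163, Pf4, Cbr2, Ms4a7), cells of the brain's vessels and membranes. They were 1 WT and 2 Ehmt1Δ/+ nuclei of the 96-well plates and 1 Ehmt1Δ/+ nucleus of the 384-well plates, and 1 further nucleus (WT, 96-well) had 2 of the markers. Over whole pools, the summed level of these markers in microglia was 57.6 RPKM (WT) and 178.7 RPKM (Ehmt1Δ/+) in the 96-well plates, and 0.158 and 78.4 RPKM in the 384-well plates. Results that rest on these nuclei are given with and without all 5 of them. Leaving them out did not level the markers between genotypes: the sum was then 1.20 RPKM in WT and 14.7 in Ehmt1Δ/+ of the 96-well plates, and 0.158 and 2.82 in the 384-well plates. Exactly 1 of the markers was above 0 in 6 WT and 15 Ehmt1Δ/+ nuclei of the 96-well plates, and in 1 and 4 of the 384-well plates. Their part in the results without the 5 nuclei was not tested.

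To show where transcription of the members starts, the 250 bases before the annotated start (RefSeq, GRCm38.p6) are printed for Trem2, Apoe and Cst7. Trem2 was found in nearly all microglia, Apoe in all 3 cell types and Cst7 mostly in neurons. Capitals mark GAGGAA or its reverse complement TTCCTC, the core bound by the myeloid factor PU.1. Of 32851 such windows of all genes, 23.3% held this core on either strand. It was in 7 of the 12 windows of the 8 members with an entry, those of Apoe, Axl, Clec7a, Spp1 and Trem2. The longer form GAGGAAGT was in 2.44% of all windows and, of the members, in a window of Spp1. Lpl and Tyrobp had no entry. In Trem2 the match begins at position -40 from the start and in Apoe at -250, while the Cst7 window had none of these letters.
Trem2, chr17:48346151-48346400, + strand: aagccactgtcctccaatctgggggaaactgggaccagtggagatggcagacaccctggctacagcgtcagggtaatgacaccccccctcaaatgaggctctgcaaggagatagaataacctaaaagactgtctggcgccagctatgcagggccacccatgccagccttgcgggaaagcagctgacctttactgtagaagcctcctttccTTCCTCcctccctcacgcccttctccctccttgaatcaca
Apoe, chr7:19699189-19699438, − strand: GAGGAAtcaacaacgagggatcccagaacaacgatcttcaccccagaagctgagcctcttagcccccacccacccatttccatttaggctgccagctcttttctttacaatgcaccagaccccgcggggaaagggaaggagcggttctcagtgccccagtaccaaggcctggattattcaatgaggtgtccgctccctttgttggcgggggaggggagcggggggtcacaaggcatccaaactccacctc
Cst7, chr2:150570165-150570414, + strand: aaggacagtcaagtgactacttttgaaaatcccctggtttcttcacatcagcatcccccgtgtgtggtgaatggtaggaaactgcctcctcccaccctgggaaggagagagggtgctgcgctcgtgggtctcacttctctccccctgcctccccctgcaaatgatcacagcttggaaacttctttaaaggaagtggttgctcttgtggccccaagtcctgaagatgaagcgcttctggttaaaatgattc

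The members fell into 4 patterns across cell types. Trem2 and Tyrobp were in most microglia and nearly absent elsewhere. Cd9 was in microglia and oligodendrocytes, Apoe was in all 3 cell types, and the other 6 members were rare in microglia. Since the nuclei were typed from their expression, these patterns between cell types are a description and carry no test.

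**Figure D1:**
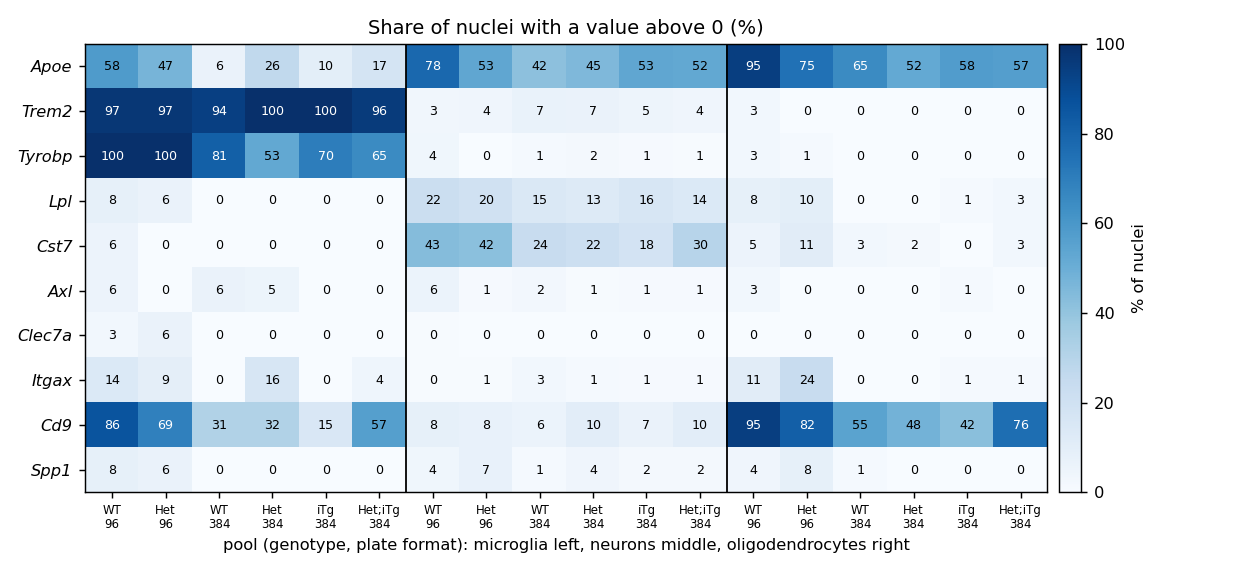
Share of nuclei with a value above 0 (%), for the 10 members (rows) in the 6 pools (columns) of microglia, neurons and oligodendrocytes. Trem2 is above 0 in 93.8% to 100% of microglia of every pool and in at most 6.67% of neurons, whereas Cst7 and Lpl are above 0 more often in neurons than in microglia.

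Trem2, the receptor (chr17:48346401-48354147, mm10), was above 0 in 97.3% of all microglia. Its mean level was 108.4 ± 42.8 RPKM (SD across 36 nuclei) in WT and 94.2 ± 46.04 RPKM (32 nuclei) in Ehmt1Δ/+ of the 96-well plates. Among the 384-well pools it was 133.3 ± 76.5 RPKM in WT, 159.1 ± 85.02 in Ehmt1Δ/+, 97.4 ± 84.9 in iTg and 135.1 ± 79.4 in Ehmt1Δ/+; iTg. The 6 pool means thus lay within a range of 94.2 to 159.1 RPKM, and the nuclei of all pools overlapped. Neurons had pool means of 0.0612 to 0.375 RPKM and 4.93% of nuclei above 0, although in the 384-well plates they had many more reads than microglia. Of 397 oligodendrocytes, 2 had a read of Trem2, both in the WT 96-well pool.

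Tyrobp, the adaptor that carries the Trem2 signal into the cell (chr7:30413760-30417585), was in all 36 WT and all 32 Ehmt1Δ/+ microglia of the 96-well plates. There its mean was 173.7 ± 82.9 RPKM in WT and 111.3 ± 77.6 RPKM in Ehmt1Δ/+, and its median was 175.4 and 87.3 RPKM. The 384-well mean was 272.8 ± 223.97 RPKM in WT, with 13 of 16 nuclei above 0, and 115.3 ± 138.02 RPKM in Ehmt1Δ/+, with 10 of 19. Tyrobp was thus lower in Ehmt1Δ/+ in both formats, with overlapping nuclei. With all nuclei thinned to 26381 reads, the expected share above 0 was 89% (WT, 36 nuclei) and 74.7% (Ehmt1Δ/+, 32 nuclei) in the 96-well plates, and 90.8% (14 nuclei) and 56.3% (15 nuclei) in the 384-well plates. Within the 3 plate codes that the 96-well genotypes had in common, Tyrobp averaged 166.4 RPKM in WT and 153.5 in Ehmt1Δ/+ in code 1, 176.7 and 82.6 in code 2, and 158.3 and 83.5 in code 3. In iTg it was 118.7 ± 184.04 RPKM (14 of 20 nuclei) and in Ehmt1Δ/+; iTg 100.1 ± 93.96 RPKM (15 of 23 nuclei), both near the Ehmt1Δ/+ value of these plates. In the order of the 6 pool means, every step between neighbours was smaller than the larger of their SDs across nuclei.

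Cd9, a tetraspanin of the cell surface (chr6:125460266-125494791), was above 0 in 86.1% of WT microglia (31 of 36) and 68.8% of Ehmt1Δ/+ microglia (22 of 32) of the 96-well plates. The mean was 37.8 ± 36.1 RPKM in WT and 19.1 ± 24.3 RPKM in Ehmt1Δ/+. In the 384-well pools it was 10.7 ± 21.97 RPKM in WT and 13.3 ± 27.5 RPKM in Ehmt1Δ/+, from only 18 and 32.8 reads in all, so the direction differed between formats. The summed level of 5 oligodendrocyte markers in these microglia moved with it, at 19.3 RPKM in WT and 5.84 in Ehmt1Δ/+ of the 96-well plates and 2.98 and 8.19 in the 384-well plates. The sum of 5 neuron markers was 71.3 and 15.9 RPKM, then 7.39 and 5.01. Their part in the Cd9 values was not tested. Among the 96-well codes in common, which do not mark single plates, Cd9 was also higher in Ehmt1Δ/+ in code 1 (21.6 RPKM in WT, 30.4 in Ehmt1Δ/+). It was lower in code 2 (33.6 and 8.10) and code 3 (47.5 and 8.37). A larger share of oligodendrocytes than of microglia was above 0 in each of the 6 pools (42.3% to 94.5%), with pool means of 12.1 to 47.5 RPKM against 7.34 to 37.8. Cd9 overlaps annotated antisense genes, and the reads carry no strand. Of its 80 microglial values, 35 were not whole reads (tolerance 0.001 read), and what split these reads was not tested. Cd9 was above 0 in 8.23% of neurons, and most of these values were below 1 read.

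**Figure D2:**
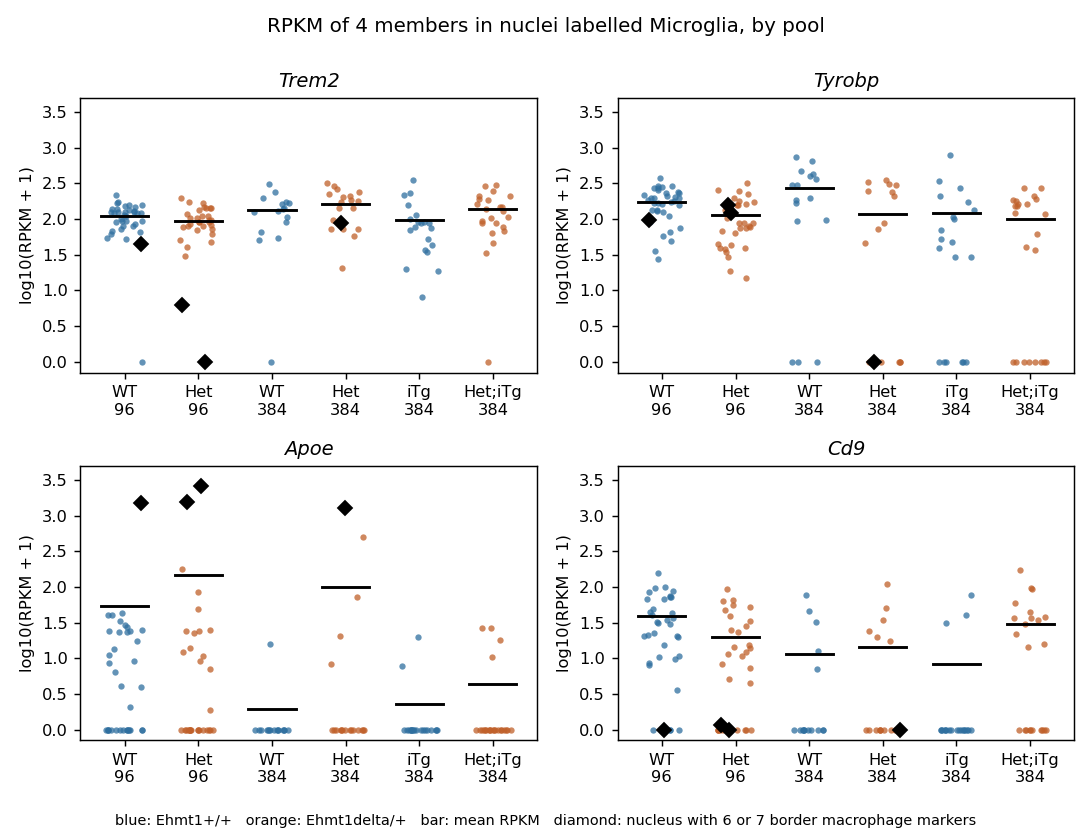
RPKM of Trem2, Tyrobp, Apoe and Cd9 in each nucleus labelled Microglia, as log10(RPKM + 1), by pool; each point is a nucleus, bars are pool means and black diamonds are the 4 nuclei with 6 or 7 border macrophage markers. The diamonds are the 4 highest Apoe values, from 1292 to 2620 RPKM, and lift the Apoe mean of 3 pools.

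Apoe, the main lipid carrier of the brain (chr7:19696109-19699188), was found in fewer microglia than oligodendrocytes. It was above 0 in 21 of 36 WT microglia (58.3%, Clopper-Pearson 95% interval 40.8% to 74.5%) and in 15 of 32 Ehmt1Δ/+ microglia (46.9%, 29.1% to 65.3%) of the 96-well plates. Of the 384-well microglia, it was above 0 in 1 of 16 WT (6.25%, 0.158% to 30.2%), 5 of 19 Ehmt1Δ/+ (26.3%, 9.15% to 51.2%), 2 of 20 iTg (10%, 1.23% to 31.7%) and 4 of 23 Ehmt1Δ/+; iTg microglia (17.4%, 4.95% to 38.8%). Neurons, in which Apoe is not a typical product, had it above 0 in 78.3% of WT and 53.2% of Ehmt1Δ/+ nuclei of the 96-well plates, but at a pool mean of only 2.76 to 4.202 RPKM. Of oligodendrocytes, 68.01% were above 0. Intervals cover the counting error over nuclei only, since the nuclei of a pool are not replicates. The method also tags no molecules.

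The mean level of Apoe in microglia followed a few nuclei. In the 96-well plates it was 52.9 RPKM in WT and 144.4 RPKM in Ehmt1Δ/+. A single WT nucleus with 7 border macrophage markers (1513 RPKM, 1885 reads) made 79.5% of the WT sum, and 2 such Ehmt1Δ/+ nuclei (2620 and 1549 RPKM) made 90.2% of the Ehmt1Δ/+ sum. Without the nuclei with 2 or more of these markers the means were 10.8 ± 13.7 RPKM (34 nuclei) and 15.04 ± 35.6 RPKM (30 nuclei). The 384-well mean was 0.941 RPKM in WT and 99.7 RPKM in Ehmt1Δ/+, where the macrophage-marker nucleus (1292 RPKM, 110 reads) made 68.2% of the sum, and it was 33.4 ± 118.5 RPKM (18 nuclei) in Ehmt1Δ/+ without it. One nucleus of 503 RPKM (64 reads) made 83.6% of that remaining sum, and the mean was 5.799 RPKM without it too. The WT value rests on 2 reads of 1 nucleus. Over all microglia, the 4 nuclei with 6 or 7 markers held 81.7% of the Apoe RPKM. Of the nuclei with fewer than 2 markers, 43 were above 0, with a median of 19.3 RPKM. How much of the Apoe difference between genotypes comes from the number of such nuclei sorted was not tested.

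**Figure D3:**
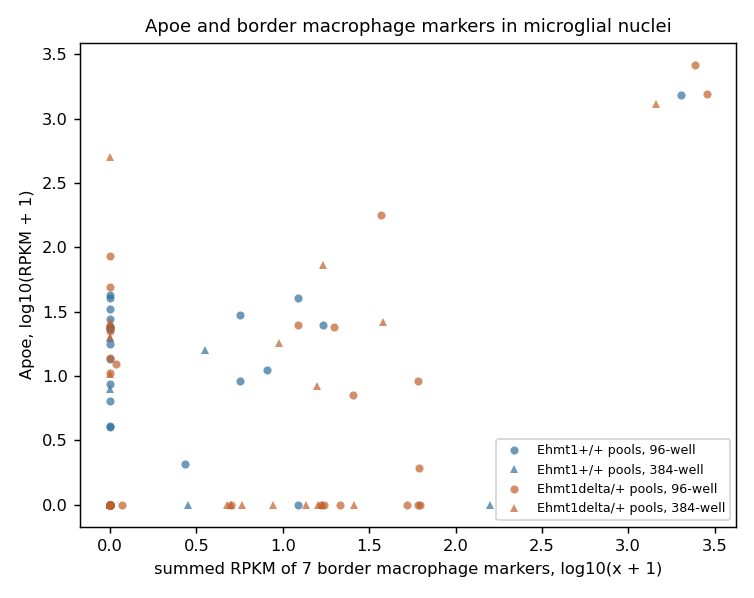
Apoe against the summed RPKM of the 7 border macrophage markers in each microglial nucleus, both as log10(x + 1); colours give the Ehmt1 genotype and symbols the plate format. The 4 nuclei at the upper right, 3 of them from Ehmt1Δ/+ pools, stand apart from all others on both axes.

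Counted as reads, Apoe made 2309 of 18008089 microglial reads in WT and 5418 of 16203114 in Ehmt1Δ/+ of the 96-well plates, a ratio per read of 2.61 (exact 95% interval 2.48 to 2.74). Without the macrophage-marker nuclei it made 398 and 528 reads, a ratio of 1.48 (1.30 to 1.69). The 384-well ratio was 75.5, with an interval of 20.6 to 628 that reflects the 2 reads of WT, and 31.6 (8.44 to 265.7) without the macrophage-marker nucleus, where 64 of the 73 Ehmt1Δ/+ reads lay in 1 nucleus. Reads of 1 nucleus are not independent, so these intervals are too narrow for nuclei, and they say nothing of mice. In the pools with the active transgene, iTg held 2 and Ehmt1Δ/+; iTg held 8 Apoe reads, a ratio of 4.06 with an interval of 0.809 to 39.2.

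The plate codes that the 96-well genotypes had in common did not move together for Apoe. Since such a code does not mark a single plate, these are not comparisons within a plate. In code 1, 3 of 7 WT and 9 of 12 Ehmt1Δ/+ microglia were above 0, and their means without macrophage-marker nuclei were 11.2 and 29.5 RPKM. In code 2, 6 of 8 WT and 1 of 6 Ehmt1Δ/+ nuclei were above 0 (16.97 and 1.02 RPKM), and in code 3 5 of 8 and 2 of 9 (9.72 and 2.33 RPKM). Of these 3 codes, only code 1 had a higher mean in Ehmt1Δ/+, and both macrophage-marker Ehmt1Δ/+ nuclei also lay in code 1. The 3 codes held 23 of the 36 WT and 27 of the 32 Ehmt1Δ/+ microglia. The mean of the 96-well plates therefore also took in nuclei of codes that only 1 genotype had, which are not split here.

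Across both plate formats, Ehmt1Δ/+ was tested against WT by limma on log2(pool mean + 0.1), with 4 pools and a term for plate format, which left 1 degree of freedom for the residual. Of the 10 members, 4 passed the filter (above 0 in at least 10% of microglia of one genotype in both formats). Apoe passed only through Ehmt1Δ/+, since it was above 0 in 6.25% of WT microglia of the 384-well plates. None of the 4 was called at an adjusted p under 0.05, as was the case for 0% of the 13686 genes tested. At an unadjusted p under 0.05 none of the 4 was called, against 0.899% of all genes higher and 1.03% lower.

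Apoe had a log2 ratio of 4.01 ± 1.56 (SE; limma, adjusted p = 0.92), made of 1.45 for the 96-well and 6.58 for the 384-well pools. Without the macrophage-marker nuclei the ratio was 2.74 ± 1.40 (adjusted p = 0.92), and 0.48 in the 96-well plates. When the highest remaining nucleus of each pool was also left out, the 96-well ratio was -0.06. Leave-one-out fits also took in the iTg and Ehmt1Δ/+; iTg pools, with a transgene term. The ratio was 1.39 there without the 384-well WT pool, with its 2 reads, and also 1.39 without the 384-well Ehmt1Δ/+ pool. Both values rest on the 96-well ratio of 1.45 and on Ehmt1Δ/+; iTg against iTg (1.33, from 8 and 2 reads). Tyrobp had a log2 ratio of -0.94 ± 0.49 (-0.64 and -1.24; adjusted p = 0.92), Trem2 of 0.03 ± 0.47 (-0.20 and 0.26; adjusted p = 0.99) and Cd9 of -0.33 ± 0.59 (-0.98 and 0.32; adjusted p = 0.96). The direction of Cd9 turned (log2 ratio 0.44) when all 6 pools were fitted. Of the 4, 1 was higher in Ehmt1Δ/+ in both formats, Apoe, and 1 lower in both, Tyrobp. Of all genes tested, 25.1% were higher and 25.7% lower in both, so these counts were near the background. Past 2-fold, 1 of the 4 members (Apoe) was higher and none lower in the 96-well plates, where 5.1% of all genes were higher and 7.28% lower. Among the 384-well pools 1 was higher (Apoe) and 1 lower (Tyrobp), against 22.1% and 21.8% of all genes. Apoe was past 2-fold in both formats, like 2.12% of all genes, and none was lower in both, like 2.37%. Without the macrophage-marker nuclei Apoe was not past 2-fold in the 96-well plates. Since Apoe passed the filter only through Ehmt1Δ/+, the group where its mean is high, its place in these counts supports nothing.

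Shares above 0 gave no common direction either. In the 96-well plates, 1 of the 10 members (Clec7a) was above 0 in a larger share of Ehmt1Δ/+ than WT microglia, 8 in a smaller share and Tyrobp in the same. Of all genes above 0 in either pool, 40.9% had a larger and 56.5% a smaller share. Of the 6 members with a value in the 384-well plates, 4 (Apoe, Trem2, Itgax, Cd9) had a larger share in Ehmt1Δ/+ and 2 a smaller one, against 45.9% and 52.9% of all genes.

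**Figure D4:**
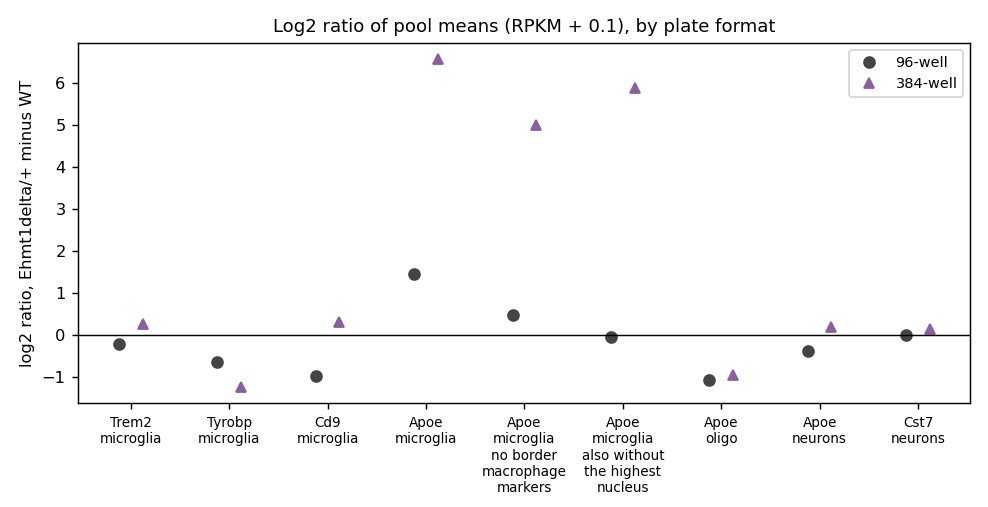
Log2 ratio of Ehmt1Δ/+ to WT pool means (RPKM + 0.1) in 96-well (circles) and 384-well (triangles) plates, for members in microglia and, for Apoe and Cst7, in other cell types; each point is a ratio of 2 pools, with no error bar. Apoe lies above 0 in microglia of both formats with all nuclei (1.45 and 6.58) and below 0 in oligodendrocytes of both (-1.08 and -0.95), while Tyrobp lies below 0 in both.

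In oligodendrocytes, Apoe moved the other way. The mean was 83.8 RPKM in WT and 39.6 RPKM in Ehmt1Δ/+ of the 96-well plates, with 69 of 73 and 53 of 71 nuclei above 0. The 384-well means were 42.7 RPKM in WT, 22.1 in Ehmt1Δ/+, 32.3 in iTg and 28.7 in Ehmt1Δ/+; iTg. The log2 ratio of Ehmt1Δ/+ to WT was -1.01 ± 0.26 (-1.08 and -0.95), with an unadjusted p of 0.0213 and an adjusted p of 0.87 in the limma fit over 12832 genes of oligodendrocytes, where 1.68% were higher and 3.04% lower at an unadjusted p under 0.05. It did not pass the correction. The summed level of 5 neuron markers in these oligodendrocytes was 59.1 RPKM in WT and 15.5 in Ehmt1Δ/+ of the 96-well plates. In the 384-well plates it was 8.77 and 3.85 RPKM. The sum of 6 astrocyte markers was 23.5 and 14.8 RPKM, then 13.4 and 15.2, so it was lower in Ehmt1Δ/+ only in the 96-well plates. Their part in the Apoe values of oligodendrocytes was not tested. Cd9, the other member tested there, had -0.13 ± 0.48 (adjusted p = 0.98). In neurons 3 members passed the filter (Apoe, Lpl and Cst7) and none was called at an unadjusted p under 0.05, as 3.19% of genes were higher and 6.99% lower. Apoe had a ratio of -0.10 ± 0.18 there (adjusted p = 0.89).

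The other 6 members were rare in microglia. At least 1 read of any of them was found in 21 microglia, 14.4% of all: 9 of 36 (25%, 12.1% to 42.2%) in WT and 7 of 32 (21.9%, 9.28% to 39.97%) in Ehmt1Δ/+ of the 96-well plates. The 384-well counts were 1 of 16 WT, 3 of 19 Ehmt1Δ/+, 0 of 20 iTg and 1 of 23 Ehmt1Δ/+; iTg microglia. By the same measure, 679 of 1664 neurons (40.8%) and 44 of 397 oligodendrocytes (11.1%) held at least 1 read of these members. Neurons of the 384-well plates had more reads per nucleus than microglia. Lpl, Clec7a, Spp1 and Cst7 were at 0 in all 384-well microglial pools, which for 16 nuclei allows a share of up to 18.8% and for 23 up to 13.04%.

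Itgax, the integrin CD11c, was the most frequent of the 6, above 0 in 12 microglia (8.22%). It was above 0 in 5 of 36 WT and 3 of 32 Ehmt1Δ/+ nuclei of the 96-well plates, at means of 11.4 and 3.04 RPKM, and 80.2% of the WT sum lay in 1 nucleus. That nucleus, described further on, lacks defining microglia markers, and the WT mean was 2.31 RPKM without it. Counting only nuclei with at least 1 whole read, the shares were 8.33% in WT and 9.38% in Ehmt1Δ/+, so the order of the genotypes turned. On the 384-well side it was at 0 in all WT and iTg microglia, and above 0 in 3 of 19 Ehmt1Δ/+ nuclei (50.5 RPKM) and 1 of 23 Ehmt1Δ/+; iTg nuclei (3.00 RPKM). One Ehmt1Δ/+ nucleus of 905 RPKM made 94.4% of that pool's sum. Axl, a receptor tyrosine kinase for dying cells, was above 0 in 4 microglia, 2 of 36 WT in the 96-well plates and 1 WT and 1 Ehmt1Δ/+ nucleus in the 384-well plates. Clec7a, the receptor dectin-1, was above 0 in 1 WT and 2 Ehmt1Δ/+ microglia of the 96-well plates, and in only 1 of 1664 neurons and 0 of 397 oligodendrocytes.

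Cst7, the inhibitor cystatin F, was read more often in neurons than in microglia. It was above 0 in 2 microglia, both WT of the 96-well plates, and in 488 of 1664 neurons. Neurons had it in 43.5% of WT and 41.9% of Ehmt1Δ/+ nuclei of the 96-well plates, at means of 3.25 and 3.24 RPKM, and in 18.2% to 29.6% of nuclei of the 384-well pools. The 96-well microglia had a higher median of reads per nucleus (493359 and 510639) than these neurons (343803 and 352622). Among the neurons above 0 the median was 2 reads in each pool. Between genotypes, Cst7 in neurons had a log2 ratio of 0.07 ± 0.11 (limma, adjusted p = 0.86).

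Lpl, lipoprotein lipase, was likewise above 0 in 16.5% of neurons but in only 5 microglia (3.42%), and 65 of the neuronal values were below 1 read. Its log2 ratio between genotypes in neurons was -0.02 ± 0.17 (adjusted p = 0.98). Spp1, osteopontin, was above 0 in 5 microglia, 3 WT and 2 Ehmt1Δ/+ of the 96-well plates, and 1 WT nucleus held 83.1% of the WT sum. It was above 0 in 3.25% of neurons and 2.52% of oligodendrocytes, close to the 3.42% of microglia. Its exons overlap another annotated gene.

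**Figure D5:**
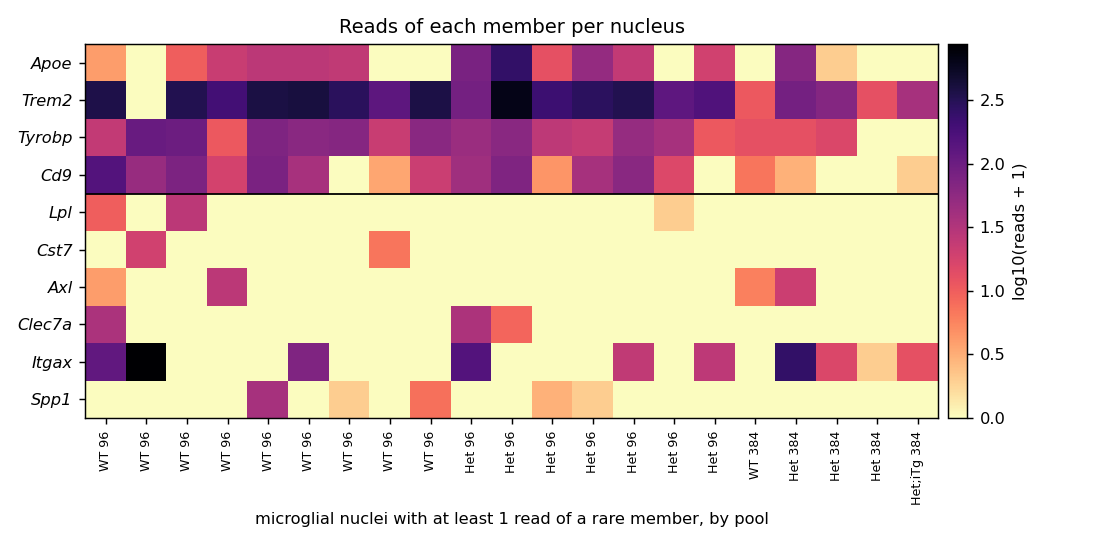
Reads of each member, as log10(reads + 1), in the 21 microglial nuclei with at least 1 read of Lpl, Cst7, Axl, Clec7a, Itgax or Spp1 (lower rows), by pool. Most columns show a single rare member, and 4 nuclei hold 2 or more of them.

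Joint detection of several members was seen in single nuclei of both genotypes, named here after their values were seen. A WT nucleus of the 96-well plates held 8 of the 10 members, at 155.2 RPKM of Trem2, 156.6 of Cd9, 52.3 of Itgax, 27.7 of Clec7a (34 reads) and 1.84 of Lpl (9 reads). It also held the resting genes P2ry12 (135.8 RPKM), Tmem119 (83.5 RPKM) and Cx3cr1 (392 RPKM), and 13 of the 13 genes of the homeostatic list. An Ehmt1Δ/+ nucleus of these plates held 6 members, with 150.5 reads of Itgax, 78 of Apoe and 33 of Clec7a, and 11 of the homeostatic genes.

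An Ehmt1Δ/+ nucleus of the 384-well plates also held 6 members, with Apoe at 503 RPKM, Itgax at 905, Tyrobp at 302.4, Trem2 at 288.9 and Axl at 66.8. No border macrophage marker was above 0 in it. P2ry12 and Tmem119, the purinergic receptor and the surface protein of resting microglia, were at 0, Csf1r was at 373 RPKM, and 3 further genes of the activated state were present, the lectin Lgals3 at 36.2 RPKM, the fatty acid binding protein Fabp5 at 280.8 and the growth factor Csf1 at 130.5. It had 59488 reads in all. By contrast, a WT nucleus of the 96-well plates with 878 reads of Itgax and 18 of Cst7 had no read of Trem2 or Csf1r and 3 of the 13 homeostatic genes, and goes against its label on these markers. It is the only 1 of the 36 without Csf1r.

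Members per nucleus averaged 3.86 ± 1.05 (WT) and 3.41 ± 1.13 (Ehmt1Δ/+) in the 96-well plates. The 384-well averages were 2.19 ± 1.05 (WT), 2.32 ± 1.25 (Ehmt1Δ/+), 1.95 ± 0.605 (iTg) and 2.39 ± 0.891 (Ehmt1Δ/+; iTg). Within each format the genotypes differed by less than 1 SD across nuclei, and the averages were higher in the format with more reads per nucleus.

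The other genes of the programme were counted from lists. Of 5 further early genes, all tested, 1 was higher and 2 lower in Ehmt1Δ/+ in both formats, and none was called. Of all genes tested, 25.1% were higher and 25.7% lower in both formats. Cathepsin D (Ctsd) had 705 RPKM in WT and 386 in Ehmt1Δ/+ of the 96-well plates and 264.8 and 321.2 in the 384-well plates, and B2m of antigen presentation 302.5 and 152.8, then 42.8 and 36.4. The 1 higher in both was lysozyme (Lyz2), named after its value was seen, at 22.9 and 104.6 RPKM, then 5.18 and 60.5, a log2 ratio of 2.85 ± 0.60 (limma, unadjusted p = 0.0181, adjusted p = 0.92). Lyz2 was at 310.97 to 1331 RPKM in the 4 nuclei with 6 or 7 border macrophage markers.

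Of 15 further late genes, 11 were tested, and none was called. In both formats 4 were higher (36.4%) and 4 lower (36.4%), beside 25.1% and 25.7% of all genes. Cathepsin Z (Ctsz) had 145.9 and 130.7 RPKM in WT and Ehmt1Δ/+ of the 96-well plates and 127.3 and 162.5 in the 384-well plates, and the lysosomal protein Cd68 59.5 and 53.8, then 43.3 and 34.8. Gpnmb, a marker of strongly activated phagocytes, was listed at 0 in every microglial pool. The median log2 ratio was -0.30 over the early and 0.10 over the late genes, beside -0.02 over all genes tested.

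None of the genes around the receptor was called either. Of 10 Trem2-Tyrobp signalling genes, 9 were tested, with a median log2 ratio of 0.02. In both formats 3 were higher (33.3%) and 2 lower (22.2%), beside 25.1% and 25.7% of all genes. The lipid phosphatase Inpp5d had 221.7 and 256.2 RPKM in WT and Ehmt1Δ/+ of the 96-well plates and 189.9 and 196.4 in the 384-well plates, and the adaptor Fcer1g 90.01 and 68.5, then 109.1 and 120.7. Of 12 genes of lipid and lipoprotein handling, 10 were tested, with a median log2 ratio of -0.36. In both formats 1 was higher and 7 lower, where 25.1% of all genes were higher and 25.7% lower in both. The lipoprotein receptor Lrp1 had 154.2 and 115.8 RPKM, then 351.2 and 314.5, and the cholesterol exporter Abca1 145.7 and 140.1, then 138.8 and 65.6. None of the 10 was called, or had an unadjusted p under 0.05.

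All 13 homeostatic genes were tested, and the median log2 ratio was -0.21. In both formats 0 were higher and 4 lower (30.8%), beside 25.1% and 25.7% of all genes. Csf1r, the growth factor receptor of microglia, had 959.9 and 801 RPKM in WT and Ehmt1Δ/+ of the 96-well plates and 823 and 864 in the 384-well plates. None of the 13 was called.

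With the transgene active in neurons, 1 pool per group allows no test, and called here means past 2-fold. Of 4 members above 0 in at least 10% of nuclei of either pool, iTg against WT had 0 past 2-fold higher and 1 lower, Tyrobp (log2 ratio -1.20), where 20.7% and 23.2% of all genes were past 2-fold. Of 5 members, Ehmt1Δ/+; iTg against Ehmt1Δ/+ had 1 higher, Cd9 (1.15), and 2 lower, Apoe (-4.85) and Itgax (-4.03), beside 26.3% and 16.2% of all genes. Itgax passed the 10% minimum only through Ehmt1Δ/+ (15.8% against 4.35% of nuclei), the pool where it is high, so its place in this count supports nothing. Of the Ehmt1Δ/+ sums behind these 2 lower values, the macrophage-marker nucleus held 68.2% for Apoe and the nucleus with 6 members 94.4% for Itgax. Of 4 members, Ehmt1Δ/+; iTg against iTg had 2 higher, Apoe (1.33, from 8 and 2 reads) and Cd9 (2.00), and 0 lower, beside 29.1% and 14% of all genes. Trem2 stayed within 2-fold in all 3 comparisons (-0.45, -0.24 and 0.47). The WT pool of these plates had another plate code than the other 3 pools, so code and group cannot be told apart in comparisons with it.

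Across the 18 pool by cell type means, the genes most like Trem2 in log2 level, of 19293 compared, were Gsdmd, Lrrk1, Csf3r, Mertk and F11r, with Pearson's r of 0.998 to 0.997. Tyrobp had an r of 0.990 with it and Itgax of 0.697, while Apoe had -0.04. Those most like Apoe were Parn (0.953), Cox6b2 (0.904), Spef2 (0.897), C4b (0.894) and Cep128 (0.878). The points share pools and libraries, and for Trem2 they fall into 6 high microglial points and 12 near 0, so these values describe a cell type pattern.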

How the data were processed

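Single cortical nuclei were sequenced by RamDA-seq. The deposited values are RPKM per gene and nucleus, which the authors made by trimming, alignment to mm10 with HISAT2 2.0.4 and counting over Gencode exons with featureCounts (Subread 1.5.0), without strand. All columns were mapped to samples. Symbols came from the reference gene table (52403 of 52636 genes). Read totals were recovered from the RPKM steps with GENCODE M21 exon lengths; every value was a whole multiple of 0.01 read in each nucleus, so reads had been split in fractions. Groups and cell types are those of the labels.

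Pool means of RPKM over nuclei were compared by limma 3.58.1 (R 4.3.3) on log2(mean + 0.1), which understates changes of low genes, with Benjamini-Hochberg adjustment. The authors' count test treats nuclei as replicates and was not used. p-values measure the spread between pools only. Shares carry exact Clopper-Pearson 95% intervals, and a share of 0 allows up to 3 counts. Genes named are all 10 members, of each list the 2 with the highest mean in microglia, and the 5 genes most like Apoe and Trem2. One gene that this rule names is not reported here. Gpnmb, Lyz2, Lgals3, Fabp5, Csf1 and the single nuclei fall outside the rule and were chosen after their values were seen. The 96-well genotypes shared 262 combinations of plate code and well, as did most wells of 3 of the 384-well pools, and no such pair held identical values. A code in common therefore does not mark a single plate. Members and lists were chosen with earlier results of these data known. The scripts were tested on simulated data.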

Additional observations from a re-analysis of the deposited data

Results flagged for a closer look

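Some ratios of Ehmt1Δ/+ to WT had opposite signs in groups that were compared the same way. With 1 pool per genotype in each group, these differences were not tested.

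In microglia, Trem2 had a log2 ratio of -0.20 for 96-well and 0.26 for 384-well pools, and Cd9 had -0.98 and 0.32, in the same order. The 384-well Cd9 value rests on 18 reads in WT and 32.8 in Ehmt1Δ/+.

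Apoe differed in sign between cell types in both formats: 1.45 (96-well) and 6.58 (384-well) in microglia against -1.08 and -0.95 in oligodendrocytes. The microglial values include the nuclei with border macrophage markers. Without them the microglial ratios were 0.48 and 5.01, still of the opposite sign to oligodendrocytes. Without the highest remaining nucleus as well, the 96-well ratio was -0.06, the same sign as in oligodendrocytes. In oligodendrocytes the summed neuron markers were also lower in Ehmt1Δ/+ in both formats, and their part in the Apoe ratios was not tested.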

How the results depend on the processing

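The count of called genes in microglia was 0 in each direction in limma under all 18 alternatives, the leave-one-out fits included (0 to 0). Under the alternatives, 58 to 500 genes were higher and 88 to 522 lower at an unadjusted p under 0.05. Apoe stayed above 0 (log2 ratio 0.71 to 5.46, leave-one-out 1.39 to 4.01, adjusted p 0.889 or more), as did Trem2 (0.03 to 0.36), and Tyrobp stayed below 0 (-1.73 to -0.44, leave-one-out -0.94 to -0.44, adjusted p 0.870 or more). Each leave-one-out fit dropped 1 pool from the fit of all 6 pools with a transgene term. Ehmt1Δ/+; iTg against iTg could therefore enter it. Leaving out a transgene pool returned the ratios of the 4-pool fit. Cd9 turned to 0.44 with all 6 pools, to 0.51 without either the WT or the Ehmt1Δ/+ 384-well pool and to 1.16 without either 96-well pool. Its leave-one-out values ran from -0.33 to 1.16. The turned values take in Cd9 of Ehmt1Δ/+; iTg against iTg (2.00), beside -0.98 (96-well) and 0.32 (384-well) for Ehmt1Δ/+ against WT.

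The number of members with a larger share in Ehmt1Δ/+ microglia of the 96-well plates was 1 as given, 2 with at least 1 whole read, 2 with at least 2 reads, 4 without macrophage-marker nuclei and 0 in the plate codes in common. In the 384-well plates it was 3 to 4. In iTg against WT, 1 member in place of 0 was past 2-fold higher when the highest nucleus was left out. This was Apoe, at 1 read against a WT pool whose only Apoe nucleus had been left out, so the construction set that call. The fit without macrophage-marker and highest nuclei, the thinning to a common total, the transgene alternatives and the fits in other cell types were chosen after seeing the data. No paired analysis was possible because the labels give no replicate number or mouse that could pair nuclei or pools, while plate format was a term in the fit as given. The fit left 1 residual degree of freedom, and 384-well microglia had medians of 39940 to 51469 reads per nucleus. Moderate changes were therefore not detectable, those of low members in particular. Even log2 ratios of 4.01 (Apoe) and 2.85 (Lyz2) had an adjusted p of 0.92 in limma. A count of 0 called genes under every alternative thus does not show that no gene changed.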

Other observations

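Lpl and Cst7, the members read mostly in neurons, were split by neuron class after their values were seen. In the 384-well plates, at least 1 read of Lpl was in 21.6% to 27.3% of neurons with Gad1, the enzyme of inhibitory transmitter synthesis, and no Slc17a7, against 8.14% to 11.8% of those with Slc17a7, the vesicular transporter of excitatory neurons, and no Gad1. It was higher in the Gad1 class in 4 of 4 pools, which held 22 to 37 such nuclei each. In the 96-well plates, with only 10 and 15 Gad1 nuclei, the shares were 6.67% to 10% and 9.49% to 11.9%, so the order was not the same. Cst7 had at least 1 read in 18.3% to 27.3% of the Slc17a7 class and 13.6% to 23.5% of the Gad1 class of the 384-well plates, and in 35.8% to 44.9% and 20% to 30% in the 96-well plates. It was lower in the Gad1 class in 3 of 4 pools of the former and 2 of 2 of the latter. The 2 classes were not tested against each other.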
